A study of Mus musculus with 12 samples.

Results

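A set of 10 genes known as markers of the white adipocyte was followed in skeletal muscle of mice kept on a high-fat diet or on chow. They were Adipoq, Lep, Retn, Cfd, Cidec, Plin1, Fabp4, Pparg, Acvr1c and Aqp7. A probe set was taken for a gene where the table of probe sets and genes gave that gene as its only symbol, which found 14 probe sets for 8 of the 10 genes, out of 18193 genes measured in all. Fabp4 had 4 probe sets, Acvr1c had 3, Aqp7 had 2, and Adipoq, Lep, Retn, Cidec and Pparg had 1 each. Cfd, which encodes the complement protease adipsin, and Plin1, the coat protein of the adipocyte lipid droplet, were not analysed here. Where a gene had several probe sets, the one with the highest mean over the 12 arrays stood for it, and the others are given separately.

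White adipocytes store triglyceride in a single large lipid droplet and release fatty acids and glycerol from it. They also secrete hormones: adiponectin acts on muscle and liver and is linked to insulin sensitivity, and leptin reports the size of the fat store to the brain. Adipocytes lie between and around muscle fibres and bundles, so a piece of dissected muscle can carry some of them along, and genes such as Adipoq are hardly made by the muscle fibre itself.

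The samples were 12 arrays of biotin-labelled cRNA from C57Bl/6 mice, 4 after 42 days on the high-fat diet (46% of calories from fat), 4 after 5 days on that diet, and 4 on standard chow (13% of calories from fat). All mice ate chow up to 6 weeks of age, and the chow arrays served as the control of both times, so the comparisons of 42 and of 5 days with chow share their controls. The labels give neither the sex of the mice, nor the muscle, nor the age of the chow mice, nor a batch. They also do not say whether replicates came from separate animals, so p-values measure only the spread between these samples, which may be technical. The values are log2 RMA signals, a summary of each probe set's brightness, and ran from 3.67 to 15.46. Array medians averaged 7.67 ± 0.020 at 42 days, 7.61 ± 0.017 at 5 days and 7.67 ± 0.019 on chow (SD, n = 4 each). No 2 arrays held identical values. Acta1, the actin of the skeletal muscle fibre, lay at 15.40 ± 0.010, 15.38 ± 0.008 and 15.39 ± 0.013 in the same order, and the 10 muscle fibre genes averaged between 15.09 and 15.16 on every array. These genes lie close to the highest signal on the arrays, where amounts are poorly resolved, so their steadiness is not taken as a check of the samples. In whole tissue, fewer adipocytes and less of an RNA per adipocyte cannot be told apart.

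The regions just upstream of 3 of the genes are shown because these 3 had the lowest fold changes at 5 days. They come from RefSeq on GRCm38.p6 and cover 250 bases before to 50 bases after the start of the gene, read 5′ to 3′ on the strand of the gene. Capitals mark matches to the motifs searched.
Adipoq, chr16:23146286-23146585, plus strand: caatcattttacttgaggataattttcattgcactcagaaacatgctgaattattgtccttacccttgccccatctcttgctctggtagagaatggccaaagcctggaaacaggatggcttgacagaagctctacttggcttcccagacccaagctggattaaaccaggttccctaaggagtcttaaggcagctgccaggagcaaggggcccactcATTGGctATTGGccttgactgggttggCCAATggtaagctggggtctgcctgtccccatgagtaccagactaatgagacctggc
Retn, chr8:3655520-3655819, plus strand: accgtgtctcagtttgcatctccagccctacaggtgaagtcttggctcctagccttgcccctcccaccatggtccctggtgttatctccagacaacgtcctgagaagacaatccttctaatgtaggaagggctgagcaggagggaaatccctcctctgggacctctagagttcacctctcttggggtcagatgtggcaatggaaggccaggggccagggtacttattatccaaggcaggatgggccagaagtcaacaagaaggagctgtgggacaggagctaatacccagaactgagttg
Cidec, first start site, chr6:113435711-113436010, minus strand: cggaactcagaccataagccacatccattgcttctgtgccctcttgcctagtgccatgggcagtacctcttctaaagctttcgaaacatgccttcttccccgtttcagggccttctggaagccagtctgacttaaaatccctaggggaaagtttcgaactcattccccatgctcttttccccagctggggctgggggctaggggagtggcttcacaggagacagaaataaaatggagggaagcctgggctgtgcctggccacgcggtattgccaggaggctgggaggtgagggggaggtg
Cidec, second start site, chr6:113434715-113435014, minus strand: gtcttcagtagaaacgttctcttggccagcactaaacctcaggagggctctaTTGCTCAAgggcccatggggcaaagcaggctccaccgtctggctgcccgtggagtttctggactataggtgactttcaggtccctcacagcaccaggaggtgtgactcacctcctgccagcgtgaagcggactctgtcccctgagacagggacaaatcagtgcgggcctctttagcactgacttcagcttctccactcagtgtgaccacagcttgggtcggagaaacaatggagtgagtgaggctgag
The motifs searched on both strands were the TATA box (TATAAA), the CCAAT box (CCAAT), the core of the C/EBP site (TTGCNNAA), the nuclear receptor half-site (AGGTCA) and the DR1 repeat (AGGTCANAGGTCA), which contains the half-site. Adipoq held 3 CCAAT boxes, and the second window of Cidec held 1 C/EBP core. The Retn window and the first window of Cidec held no match to these letters. CCAAT was present in 37.4% and the C/EBP core in 10.8% of all 32851 RefSeq promoter windows of this length. Windows were listed for 9 of the 10 genes, 14 in all. The C/EBP core stood in 4 of these 14, in windows of Lep, Cidec, Plin1 and Pparg, the half-site in 4, in windows of Pparg and Aqp7, against 16.3% of all windows, and CCAAT in 3, of Adipoq and Pparg. TATAAA stood in 1 window of Pparg, against 13.6% of all windows, and the DR1 repeat in 0 of 14, against 0.0396%. A match describes letters and does not show a bound site.

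After 5 days on the high-fat diet, the transcripts of resistin (Retn) and of the lipid droplet protein Cidec were lower than on chow, 1.95-fold and 2.51-fold. They were the 2 of 8 genes that passed the test at an adjusted p under 0.05 by limma, and 0 rose. Over all genes, 2.20% fell by that rule at 5 days (401, with 291 that rose). With each array centred on its median 212 fell and 1141 rose, and the adipocyte genes kept their directions. The other 6 also had log2 fold changes below 0, so that 8 of 8 were lower, against 53.0% of all genes, and 5 of 8 were so at an unadjusted p under 0.05, against 14.1%. The median log2 fold change of the 8 was -0.33, against -0.010 for all 18193 genes. At 42 days 0 of 8 passed the test by limma, against 3.44% of all genes that fell, and 4 (Adipoq, Retn, Cidec and Pparg) were lower at an unadjusted p under 0.05, against 13.4% of all genes. Of the 8 genes 7 were lower than on chow, against 54.9% of all genes, with a median of -0.33 against -0.012. The 8 genes were chosen with earlier results of these data known, and most of them varied together within groups. The shares given here and below therefore describe the set and do not test it. The values of each gene are plotted by array and group.

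**Figure D1:**
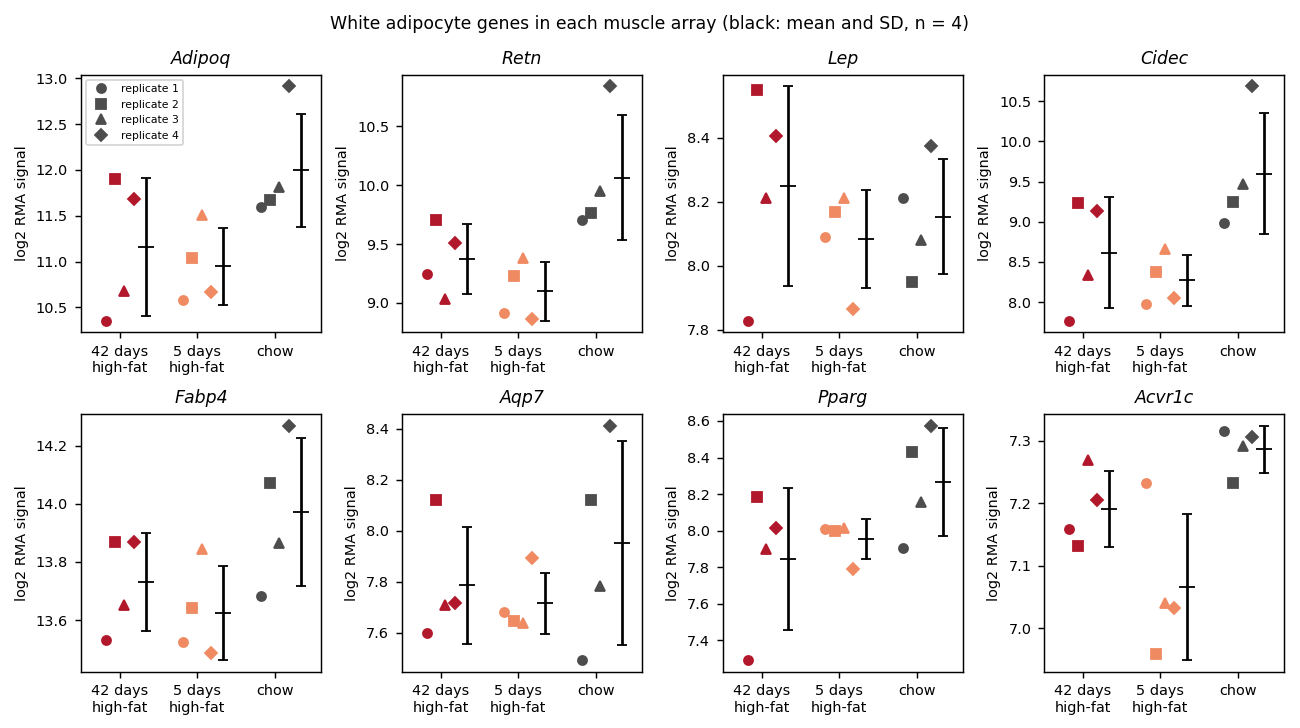
Log2 RMA signal (vertical axis) of the 8 white adipocyte genes in each of the 12 arrays, by group (42 days, 5 days, chow), with 1 symbol shape per replicate number and the group mean and SD (n = 4) in black. The highest value of Adipoq, Retn, Cidec, Fabp4, Aqp7 and Pparg is chow replicate 4, and the scale of each panel differs.

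Among the secreted proteins, Adipoq encodes adiponectin. Its log2 signals were 10.36, 11.90, 10.68 and 11.68 at 42 days, 10.58, 11.04, 11.51 and 10.66 at 5 days, and 11.59, 11.67, 11.82 and 12.91 on chow. All 5-day arrays lay below all chow arrays, while 42-day replicates 2 and 4 lay among the chow arrays and replicates 1 and 3 below all of them. The log2 fold change against chow was -1.05 ± 0.34 (SE) at 5 days, a 2.07-fold lower level (adjusted p = 0.083, limma), and -0.84 ± 0.34 at 42 days (adjusted p = 0.163, limma). Without chow replicate 4, the highest of the 12 arrays, the 5-day value was -0.75.

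Retn encodes resistin, a hormone of mouse adipocytes. Its log2 signals were 9.25, 9.71, 9.03 and 9.51 at 42 days, 8.91, 9.23, 9.38 and 8.87 at 5 days, and 9.70, 9.76, 9.95 and 10.84 on chow. The 5-day and chow arrays did not overlap, and 42-day replicate 2 reached the lowest chow array. Retn fell by 0.97 ± 0.21 at 5 days on the log2 scale (SE, adjusted p = 0.0349, limma). The 42-day difference of -0.69 ± 0.21 missed the threshold (adjusted p = 0.0703, limma). The 5-day call was lost without chow replicate 3 (-1.004, adjusted p = 0.0562), without 5-day replicate 2 (-1.01, adjusted p = 0.0836) and without 5-day replicate 4 (-0.89, adjusted p = 0.0719), and held without chow replicate 4 (-0.71, adjusted p = 0.041), all by limma.

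Lep encodes leptin. In log2 signal it was read at 7.83, 8.55, 8.21 and 8.40 at 42 days, 8.09, 8.17, 8.21 and 7.87 at 5 days, and 8.21, 7.95, 8.08 and 8.37 on chow. The 3 groups overlapped throughout, and the highest and the lowest array were both at 42 days. The log2 fold changes were 0.09 ± 0.13 at 42 days, with a 95% interval from -0.19 to 0.37, and -0.07 ± 0.13 at 5 days, with an interval from -0.35 to 0.21 (adjusted p = 0.735 and 0.772, limma).

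Cidec encodes a protein that enlarges lipid droplets by moving lipid between droplets in contact. It had log2 signals of 7.77, 9.23, 8.33 and 9.13 at 42 days, 7.98, 8.38, 8.66 and 8.05 at 5 days, and 8.99, 9.24, 9.47 and 10.69 on chow. All 5-day arrays were below all chow arrays, and 42-day replicates 2 and 4 lay within the chow range. Cidec fell by 1.33 ± 0.34 at 5 days on the log2 scale (SE, adjusted p = 0.0466, limma). At 42 days the difference was -0.98 ± 0.34 (adjusted p = 0.108, limma). The 5-day call was narrow: it held without 42-day replicate 1 and was lost without any of the other 11 arrays in turn (adjusted p between 0.0522 and 0.111, limma), with log2 fold changes between -1.53 without chow replicate 1 and -0.96 without chow replicate 4.

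Fabp4 encodes the fatty acid-binding protein of adipocytes, which is also made in macrophages and capillary endothelium. It had log2 signals of 13.53, 13.87, 13.65 and 13.87 at 42 days, 13.52, 13.64, 13.85 and 13.49 at 5 days, and 13.68, 14.07, 13.87 and 14.27 on chow. The groups overlapped. The log2 fold change was -0.24 ± 0.12 at 42 days and -0.35 ± 0.12 at 5 days (adjusted p = 0.244 and 0.0923, limma). Aqp7 encodes the channel through which adipocytes release glycerol. It averaged 7.79 ± 0.23 at 42 days, 7.72 ± 0.12 at 5 days and 7.95 ± 0.40 on chow (log2 signal, SD, n = 4 each), and its groups overlapped. Its log2 fold changes of -0.17 ± 0.16 at 42 days and -0.24 ± 0.16 at 5 days (SE) did not pass the test (adjusted p = 0.587 and 0.362, limma). The chow arrays of Aqp7 alone ran from 7.49 to 8.41, a range that held all arrays of the other groups.

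Pparg encodes the nuclear receptor that directs adipocyte differentiation and activates many adipocyte genes. Its log2 signals were 7.29, 8.18, 7.90 and 8.01 at 42 days, 8.01, 8.001, 8.01 and 7.79 at 5 days, and 7.91, 8.43, 8.16 and 8.57 on chow. The 42-day replicate 1 was the lowest of the 12 arrays. The log2 fold change was -0.42 ± 0.16 at 42 days and -0.31 ± 0.16 at 5 days (adjusted p = 0.149 and 0.249, limma). Acvr1c encodes ALK7, a receptor of the activin type that restrains lipolysis in mouse fat. Its log2 signals were 7.16, 7.13, 7.27 and 7.21 at 42 days, 7.23, 6.96, 7.04 and 7.03 at 5 days, and 7.32, 7.23, 7.29 and 7.31 on chow. Its lowest chow array and its highest 5-day array were level to 2 decimals. The log2 fold change at 5 days was -0.22 ± 0.060, just outside the threshold (adjusted p = 0.0524, limma), and it passed without 5-day replicate 1 (-0.28, adjusted p = 0.0265, limma). At 42 days it was -0.10 ± 0.060 (adjusted p = 0.384, limma).

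Between 42 and 5 days, 0 of the 8 genes passed the test by limma while 8.52% of all genes passed it. The diet began at 6 weeks of age, so the 42-day mice were also older at sampling than the 5-day mice. Time on the diet and age cannot be told apart in this comparison. At an unadjusted p under 0.05, 0 of 8 were higher and 0 lower, against 13.7% and 17.2% of all genes. Of the 8 genes 7 were higher at 42 days and 1, Pparg, was lower, against 48.0% of all genes that were lower. The largest difference was that of Cidec, 0.35 with a 95% interval from -0.38 to 1.08, followed by Retn, 0.28 with an interval from -0.18 to 0.73, and Adipoq, 0.21 with an interval from -0.51 to 0.93. The intervals of all 8 genes included 0. The fold changes are plotted with their intervals.

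**Figure D2:**
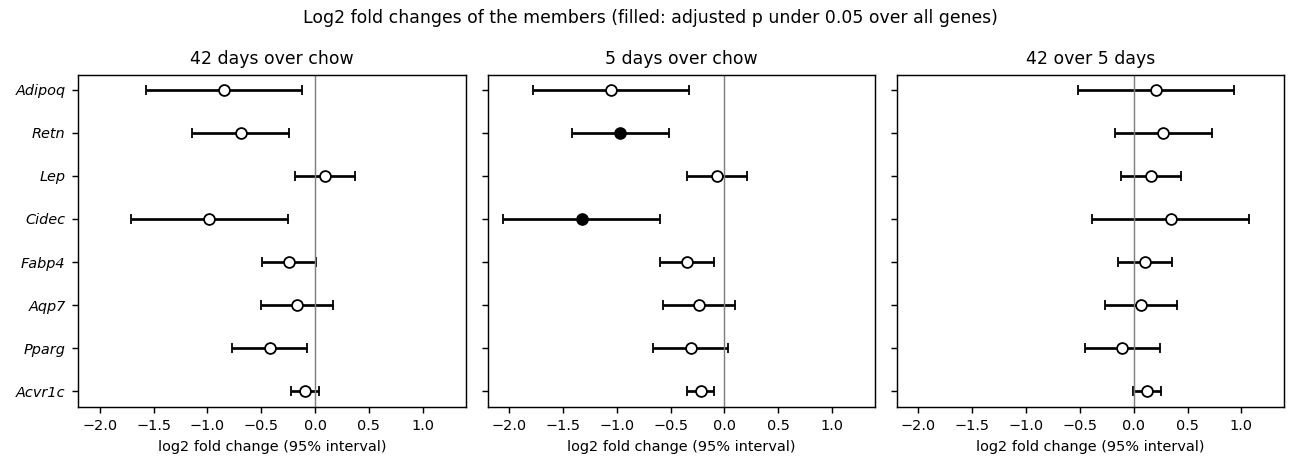
Log2 fold changes of the 8 white adipocyte genes (horizontal axes) at 42 days over chow, 5 days over chow and 42 over 5 days, with 95% intervals from limma; filled points passed an adjusted p under 0.05 over all genes. Retn at -0.97 and Cidec at -1.33 are filled, both at 5 days over chow.

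Of the 8 genes 3, Adipoq, Retn and Cidec, had 5-day arrays that all lay below all chow arrays, against 6.47% of all genes; at 42 days 0 of 8 did, against 8.66%. Most of the genes varied widely within a group. The median SD of the 8 genes was 0.30 at 42 days, 0.16 at 5 days and 0.35 on chow, against 0.075, 0.091 and 0.094 for all genes. The mean over the 8 genes was 9.24 ± 0.33 at 42 days, 9.09 ± 0.15 at 5 days and 9.66 ± 0.35 on chow (log2, SD, n = 4 arrays). Among the 42-day arrays it was 8.85, 9.59, 9.10 and 9.44. The lowest and highest of these differed by more than the 42-day and chow means did. In 42-day replicate 1, 0 of 8 genes lay above their group mean, while in replicates 2 and 4 of that group 7 of 8 did. In chow replicate 4, 8 of 8 lay above it.

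The second question was how the genes varied together once group differences were set aside. A fit of each gene on its group and on the Adipoq level found 26 of 18192 genes that rose with Adipoq (0.143%) and 0 that fell with it at an adjusted p under 0.05 by limma. Of the 7 other adipocyte genes, 2 were among them. Cidec changed by 0.98 ± 0.068 log2 units per log2 unit of Adipoq (SE, adjusted p = 1.25e-05, limma), and its deviation had the same sign as that of Adipoq in 12 of 12 arrays. Retn changed by 0.55 ± 0.081 (adjusted p = 0.0114, limma), also with the same sign in 12 of 12. Without chow replicate 4 the slope of Cidec was still past the test, and that of Retn was 0.40 and no longer was (adjusted p = 0.135, limma).

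Fabp4, with a slope of 0.28 ± 0.054 (adjusted p = 0.0703, limma), and Lep, with 0.31 ± 0.062 (adjusted p = 0.0844, limma), lay just outside. Both passed with the 40% dimmest genes left out and fewer genes tested (adjusted p = 0.0376 and 0.0497, limma), and neither did without chow replicate 4 (adjusted p = 0.844 and 0.353, limma). Over all alternatives the adjusted p ran from 0.0146 to 0.9997 for Fabp4 and from 0.0322 to 0.468 for Lep (limma). The slope of Pparg was 0.36 ± 0.087 (adjusted p = 0.247, limma), that of Aqp7 0.27 ± 0.10 (adjusted p = 0.9997, limma) and that of Acvr1c -0.030 ± 0.047 (adjusted p = 0.9997, limma).

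The same relation was given as the correlation of deviations from the group means over the 12 arrays, with exact permutation p-values, two-sided, from the 13824 orders within groups. The 7 relations are 1 family, and the fits above hold their p-values adjusted over all genes. Pearson's r of Cidec with Adipoq was 0.98 and Spearman's rho 0.94 (exact p = 7.2e-05 for both, the smallest these orders can give). Retn had r = 0.89 and rho = 0.86 (exact p = 0.00159 and 0.00109), and Fabp4 r = 0.87 and rho = 0.80 (exact p = 0.000868 and 0.00593). Lep had r = 0.85 and rho = 0.78 (exact p = 0.00355 and 0.0214), and it passed in none of the 3 comparisons of groups. Pparg had r = 0.77 and rho = 0.73 (exact p = 0.00883 and 0.0319). Aqp7 had r = 0.59 and rho = 0.63 (exact p = 0.089 and 0.0646), and Acvr1c had r = -0.23 and rho = -0.31 (exact p = 0.432 and 0.351). The 2 arrays whose Adipoq deviations from the group mean lay farthest from the median deviation were 42-day replicate 2 and chow replicate 4. Without them, r was 0.96 for Cidec, 0.82 for Retn, 0.81 for Fabp4, 0.77 for Lep and 0.63 for Pparg. It was 0.13 for Aqp7 as read by 1418849_x_at, the probe set that stood for it, so the relation of that probe set rested on those 2 arrays. The other Aqp7 probe set, 1418848_at, had r = 0.86 over the 12 arrays.

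**Figure D3:**
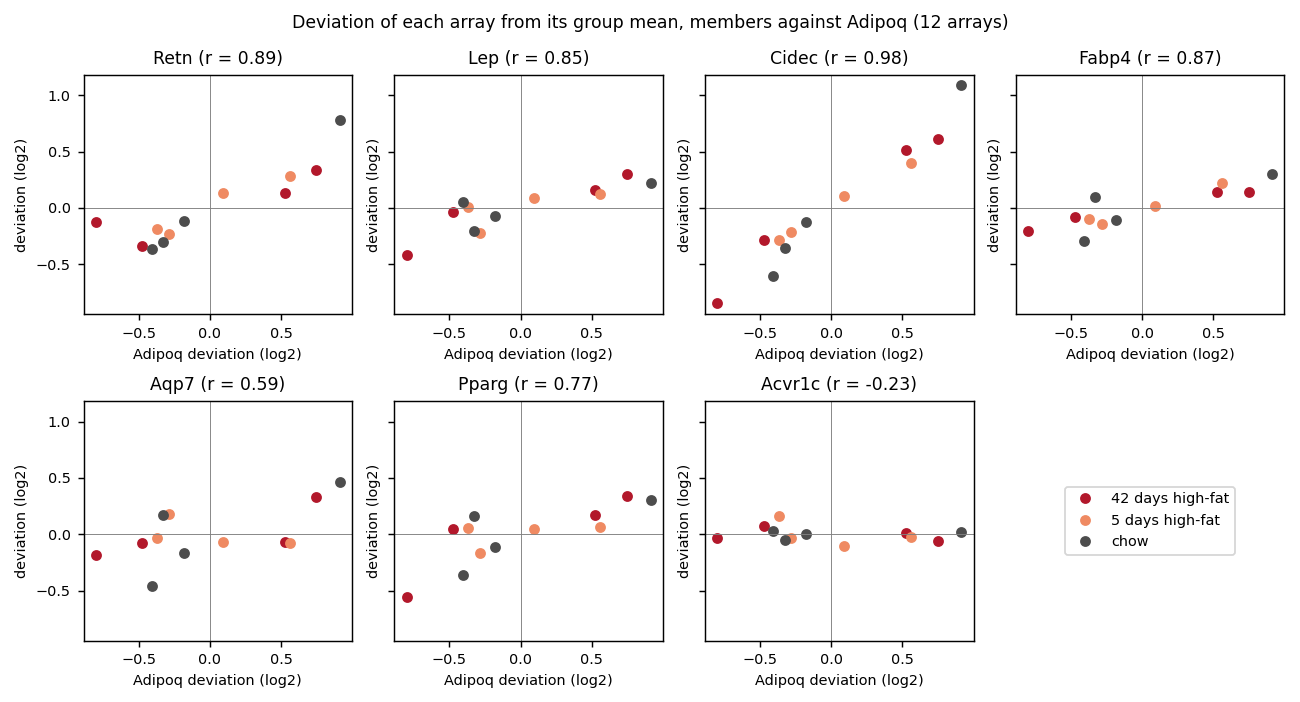
Deviation of each array from its group mean (log2) for 7 genes against that of Adipoq, 1 point per array and 12 arrays, coloured by group, with Pearson's r above each panel. Cidec follows Adipoq closest (r = 0.98), and Acvr1c has r = -0.23.

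With Adipoq, 6 of the other 7 genes had r above 0.5 within groups, against 5.85% of all 18192 genes, whose median r with Adipoq was -0.020. Over all 28 pairs of the 8 genes the median r was 0.69, and 20 pairs were above 0.5. Without 42-day replicate 2 and chow replicate 4 the median was 0.49. The 21 pairs without Acvr1c had a median of 0.77 (0.63 without those 2 arrays), and the 7 pairs with Acvr1c ran from -0.24 to 0.046. These are descriptions, since the genes were read from the same arrays. The 8 genes outside the set whose deviations followed the mean scaled deviation of the set best over the 12 arrays were Rasa3 (r = 0.97), Cebpa (0.96), Ptms (0.95), Lipe (0.94), Prkar2b (0.94), Fbxo21 (0.94), Pck1 (0.93) and Pank3 (0.93). Cebpa encodes a transcription factor of adipocyte differentiation, Lipe the hormone-sensitive lipase, Prkar2b a regulatory subunit of protein kinase A and Pck1 the enzyme of glyceroneogenesis in fat. These passed in the fit on Adipoq. Rasa3, Ptms, Fbxo21 and Pank3 did not (adjusted p = 0.244, 0.9997, 0.102 and 0.0855, limma). All 8 are given as the closest of all genes and carry no test for that choice.

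The genes that rose with Adipoq included, beside those named by rule, several that were picked out after their values were seen. Pck1 changed by 1.22 ± 0.11 and Prkar2b by 1.30 ± 0.12 log2 units per unit of Adipoq (SE, adjusted p = 0.000136 for each, limma). Trarg1, a regulator of glucose transporter traffic in fat, had a slope of 0.50 ± 0.052 (adjusted p = 0.000322, limma), Lipe 0.47 ± 0.061 (adjusted p = 0.00404, limma) and Cebpa 0.52 ± 0.070 (adjusted p = 0.00495, limma). Scd1, the stearoyl-CoA desaturase, had 0.77 ± 0.11 (adjusted p = 0.0053, limma), and Aoc3, an amine oxidase of the adipocyte surface, 0.57 ± 0.085 (adjusted p = 0.0128, limma). Ifi27l2a had a slope of 0.66 ± 0.060, Cyp2e1 0.75 ± 0.070 and Acp5 0.55 ± 0.054 (adjusted p = 0.000136, 0.000136 and 0.000186, limma). Slc1a5 had 0.56 ± 0.064 and Fabp5 0.43 ± 0.066 (adjusted p = 0.00103 and 0.0139, limma). Without chow replicate 4, 11 genes passed, and all 11 were among the 26: Cidec, Cebpa, Pck1, Trarg1, Prkar2b, Scd1, Acp5, Cyp2e1, Ifi27l2a, Slc1a5 and Tmem45b.

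The several probe sets of a gene did not always move alike. Over all 14 probe sets, 14 were lower than chow at 5 days and 12 at 42 days. The share of all probe sets that were lower is not given, and probe sets of the same gene are not separate observations. The 2 bright probe sets of Fabp4 had log2 fold changes of -0.35 and -0.36 at 5 days and of -0.24 and -0.21 at 42 days. Its dim probe set 1424155_at had log2 signals of 7.90, 8.44, 8.04 and 8.11 at 42 days, against 8.19, 8.62, 8.68 and 9.22 on chow. It fell by 0.56 ± 0.16 at 42 days on the log2 scale (adjusted p = 0.0432 over all 34945 probe sets, limma). The probe set of Retn also passed in that fit at 42 days (adjusted p = 0.0492, limma). These were 2 of the 14 probe sets, while 1641 of all 34945 fell at 42 days by the same rule. The other dim probe set of Fabp4, 1425809_at, had -0.42 ± 0.14 at 5 days and -0.41 ± 0.14 at 42 days (adjusted p = 0.0914 and 0.0753, limma).

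The probe set of Acvr1c with the highest mean, 1428032_at, was the one with r = -0.23. The other 2, 1443225_at and 1438309_at, had r = 0.82 and r = 0.75 with Adipoq within groups, but their log2 signals, between 4.43 and 5.98, lay below 6.49, the lower quartile of the array. At 42 days their log2 fold changes were -0.51 ± 0.19 and -0.15 ± 0.12 (adjusted p = 0.11 and 0.478, limma), and at 5 days -0.45 ± 0.19 and -0.29 ± 0.12 (adjusted p = 0.177 and 0.151, limma). In both, chow replicate 4 was the highest array, at 5.98 and 5.56. For Aqp7 the brighter probe set, 1418849_x_at, carries the mark of possible cross-hybridisation in its name. The other, 1418848_at, gave 0.13 ± 0.089 at 42 days and -0.12 ± 0.089 at 5 days (adjusted p = 0.39 and 0.416, limma) and had r = 0.86 with Adipoq within groups. The direction of Aqp7 at 42 days therefore differed between its probe sets.

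**Figure D4:**
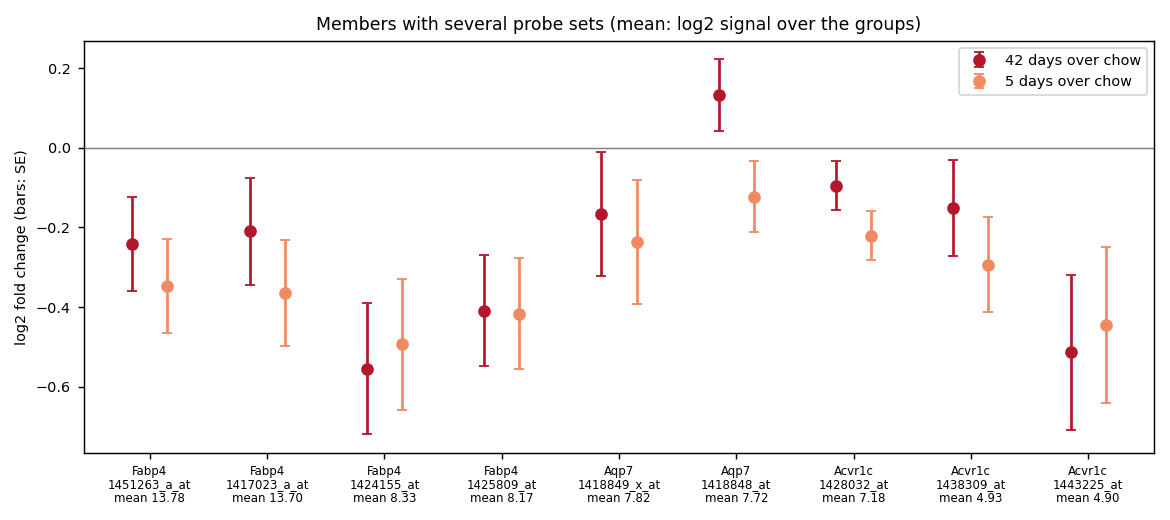
Log2 fold changes at 42 days over chow and at 5 days over chow, with SE from limma, for each probe set of Fabp4, Aqp7 and Acvr1c; the mean signal stands under each name. The second probe set of Aqp7 is the 1 point above 0, at 42 days (0.13); the dimmer probe sets of Acvr1c at 42 days, 1438309_at and 1443225_at, are at -0.15 and -0.51.

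Other genes of the adipocyte were read from a list of 22, of which 20 were measured. At 42 days 4 fell and 0 rose, at 5 days 5 fell and 0 rose, and their median log2 fold changes were -0.20 at 42 days and -0.37 at 5 days. Cdo1, the cysteine dioxygenase, averaged 9.10 ± 0.49 at 42 days, 8.74 ± 0.25 at 5 days and 10.05 ± 0.59 on chow (log2, SD, n = 4). It fell by 0.94 ± 0.26 at 42 days and by 1.31 ± 0.26 at 5 days on the log2 scale (SE, adjusted p = 0.047 and 0.026, limma). Agpat2, which makes phosphatidic acid on the path to triglyceride, fell by 0.84 ± 0.19 at 5 days (adjusted p = 0.0349, limma). Thrsp, a lipogenic nuclear protein, fell by 0.92 ± 0.20 at 42 days and by 0.87 ± 0.20 at 5 days (adjusted p = 0.0207 and 0.0371, limma). Mogat1, a monoacylglycerol acyltransferase, fell by 0.28 ± 0.069 at 42 days and by 0.32 ± 0.069 at 5 days (adjusted p = 0.0301 and 0.0344, limma). The mean log2 signals of Mogat1, 6.34 at 42 days, 6.30 at 5 days and 6.62 on chow, lay close to 6.49, the lower quartile of the array. Within groups its r with the mean scaled deviation of the white adipocyte genes was -0.039. Of the 20 listed genes 14 had such an r above 0.5. The share of all genes on this measure is not given, so the count has no reference beside it. G0s2, an inhibitor of the triglyceride lipase, fell by 0.46 ± 0.12 at 42 days and by 0.47 ± 0.12 at 5 days (adjusted p = 0.0377 and 0.0457, limma). Of this list 5 genes, Cebpa, Lipe, Trarg1, Pck1 and Cdo1, rose with Adipoq within groups. The 4 calls at 42 days were each lost without chow replicate 3 and without 42-day replicate 2, with adjusted p up to 0.134 (limma). Those of Thrsp, Mogat1, G0s2 and Cdo1 were lost without 3, 5, 6 and 10 of the 12 arrays in turn. The 5-day calls of Cdo1, Agpat2, Thrsp and Mogat1 were each lost without chow replicate 3, 5-day replicate 2 and 5-day replicate 4, with adjusted p up to 0.11 (limma). In all they were lost without 3, 3, 5 and 4 of the 12 arrays in turn. The 5-day call of G0s2 was not read with single arrays left out, so its stability is not known.

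The receptors, ligands and partners of the adipocyte genes were a list of 29, of which 26 were measured. At 5 days 0 passed the test by limma, and the median log2 fold change was 0.025. Adipor1 and Adipor2, the adiponectin receptors, had log2 fold changes of -0.05 and -0.07 at 42 days and of 0.01 and -0.01 at 5 days. Lepr, the leptin receptor, had -0.03 at 42 days and -0.12 at 5 days, and none of these passed the test (adjusted p between 0.282 and 0.962, limma). At 42 days, Aqp9, a glycerol channel of liver, rose by 0.28 ± 0.076, while Smad3, which carries the signal of activin receptors, fell by 0.31 ± 0.068 and Plin3, a droplet coat protein, fell by 0.29 ± 0.078 (adjusted p = 0.0443, 0.0212 and 0.0429, limma). The direction of Smad3 was the opposite with the mean of its probe sets (0.38) or its most variable one (0.85). The 42-day calls of Smad3, Plin3 and Aqp9 were lost without 4, 8 and 9 of the 12 arrays in turn.

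Fatty acid synthesis runs in fat as well as in liver. Of its 10 genes 7 fell at 42 days and 6 at 5 days, with median log2 fold changes of -1.01 and -1.004. Fasn, the fatty acid synthase, had log2 signals of 10.02, 9.86, 9.58 and 9.97 at 42 days, 9.51, 9.97, 10.11 and 9.31 at 5 days, and 11.00, 11.55, 12.17 and 12.79 on chow. The chow arrays were all above the others. It fell by 2.02 ± 0.28 at 42 days and by 2.15 ± 0.28 at 5 days on the log2 scale (SE, adjusted p = 0.00328 and 0.00669, limma). Slc25a1, the citrate carrier, fell by 1.26 ± 0.22 at 42 days and by 1.38 ± 0.22 at 5 days (adjusted p = 0.00851 and 0.0184, limma). Acly, the ATP citrate lyase, fell by 1.27 ± 0.20 and by 1.10 ± 0.20 at the same times (adjusted p = 0.00607 and 0.0229, limma). Elovl6, a fatty acid elongase, fell by 1.075 ± 0.20 at 42 days and by 1.22 ± 0.20 at 5 days (adjusted p = 0.0121 and 0.0184, limma). Acaca, the acetyl-CoA carboxylase, fell by 0.94 ± 0.17 at 42 days and by 0.905 ± 0.17 at 5 days (adjusted p = 0.0114 and 0.025, limma). Fasn kept its calls at both times without each array in turn. With the RNA quality measure of these arrays, the 3′ minus 5′ difference of control transcripts, as a covariate, the 42-day log2 fold changes were -1.72 for Fasn, -1.22 for Acly, -0.94 for Slc25a1 and -0.75 for Acaca, and all 4 calls were lost (adjusted p = 0.0767, 0.0823, 0.151 and 0.157, limma). The 5-day calls of Fasn, Slc25a1, Elovl6 and Acly held with it (adjusted p between 0.0227 and 0.0421, limma). The 5-day calls of Slc25a1, Elovl6 and Acly were lost without 5-day replicate 2 alone (adjusted p = 0.0666, 0.0778 and 0.0778, limma). The 5-day call of Acaca and the 42-day call of Elovl6 were not read with single arrays left out.

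Markers of other cell types are given beside these values. Of 6 measured brown adipocyte genes 1, Cidea, fell by 1.65 ± 0.44 at 5 days (adjusted p = 0.0498, limma), a call lost without 11 of the 12 arrays in turn and held without chow replicate 1, and 0 passed at 42 days. Ucp1, the uncoupling protein of brown fat, had log2 signals of 7.41, 7.73, 7.32 and 8.96 at 42 days, 7.18, 7.88, 7.47 and 7.19 at 5 days, and 7.50, 8.72, 9.58 and 9.82 on chow. It was high in chow replicates 2, 3 and 4 and in 42-day replicate 4, and its log2 fold changes were -1.05 ± 0.42 at 42 days and -1.47 ± 0.42 at 5 days (adjusted p = 0.165 and 0.0621, limma). The summed level of the brown list, as the mean log2 signal per array, ran from 8.33 to 8.96 at 42 days, from 8.27 to 8.42 at 5 days and from 8.37 to 9.33 on chow. Its part in the values of the white adipocyte genes was not tested.

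Of 9 fibroblast and preadipocyte genes 1 rose at 42 days, Lum, a matrix proteoglycan, by 0.70 ± 0.16 (adjusted p = 0.0224, limma), and 0 passed at 5 days. This list averaged from 10.56 to 10.64 at 42 days, from 10.29 to 10.76 at 5 days and from 10.19 to 10.58 on chow. Of 6 endothelial genes Pecam1 rose at 42 days by 0.43 ± 0.11 (adjusted p = 0.0393, limma), and Vwf and Cldn5 rose at 5 days by 0.33 ± 0.074 and 0.37 ± 0.086 (adjusted p = 0.0361 and 0.0376, limma). The endothelial list ran from 9.09 to 9.23 at 42 days, from 9.12 to 9.48 at 5 days and from 9.03 to 9.16 on chow. Of 6 macrophage genes Adgre1 fell by 0.23 ± 0.059 at 5 days (adjusted p = 0.0469, limma), and the list ran from 9.01 to 9.22, from 9.01 to 9.18 and from 8.95 to 9.22 in the 42-day, 5-day and chow arrays. Of 10 muscle fibre and 3 Schwann cell genes 0 passed at either time by limma. At 42 days Mb, the myoglobin gene, had a log2 fold change of 0.16 ± 0.059, Myh2, a myosin heavy chain, 0.10 ± 0.071, and Mal, a myelin protein, 0.15 ± 0.064 (adjusted p = 0.118, 0.432 and 0.195, limma). Mbp, the myelin basic protein, had -0.19 ± 0.088 for 42 over 5 days (adjusted p = 0.149, limma). The calls of Lum, Pecam1, Vwf, Cldn5 and Adgre1 were lost without 3, 7, 4, 8 and 11 of the 12 arrays in turn. The part of these cell types in the adipocyte values was not tested.

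**Figure D5:**
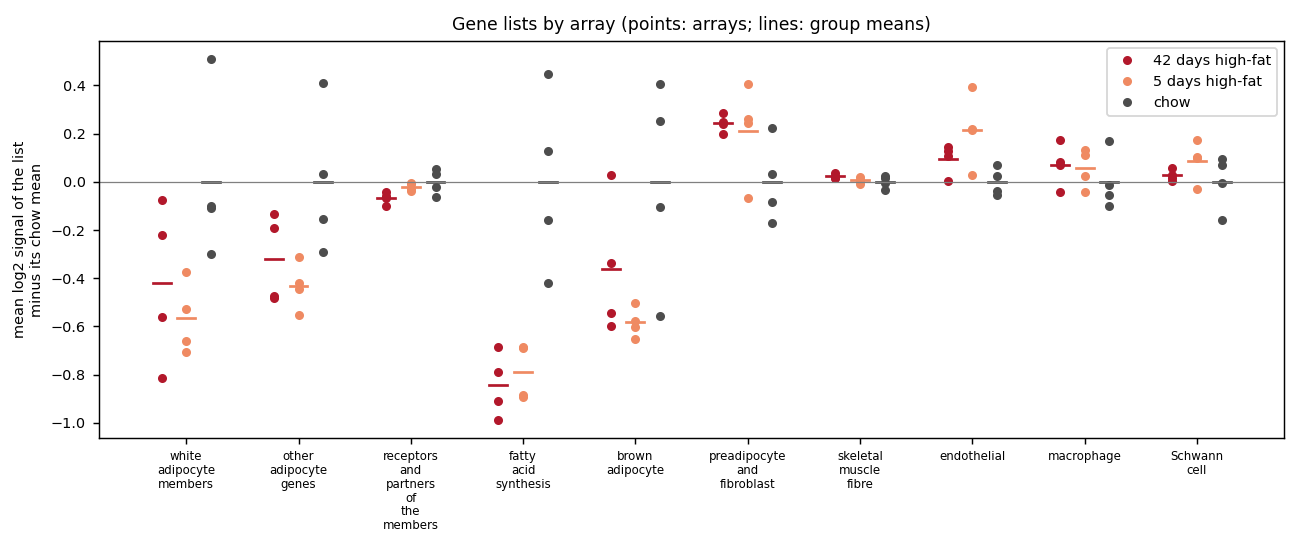
Mean log2 signal of each gene list in each array minus the mean of the chow arrays (vertical axis), with points for arrays and lines for group means, for 10 lists (42 days, 5 days and chow from left to right). The white adipocyte, other adipocyte, fatty acid synthesis and brown adipocyte lists spread most in the chow arrays, and the muscle fibre list, which is close to the top of the signal range, stays between -0.033 and 0.037.

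The RNA measure also moved with the groups. The difference between the 3′ and 5′ probe sets of 5 control transcripts, which is larger where RNA is more degraded, was 0.96 on average at 42 days (0.85 to 1.08), 1.07 at 5 days (0.96 to 1.18) and 1.13 on chow (1.08 to 1.18). With this difference as a covariate the 42-day log2 fold changes were -0.21 for Adipoq, -0.31 for Retn, -0.45 for Cidec and -0.04 for Fabp4. At 5 days they were -0.85 for Adipoq, -0.85 for Retn and -1.16 for Cidec, and both calls were lost (adjusted p = 0.0556 for Retn and 0.0803 for Cidec, limma). Over all genes, 13 passed at 42 days against chow with the covariate and 1011 without it. At 5 days 207 passed with it and 692 without it. Losses among the listed genes are to be read beside these counts. Of the calls of genes from the other lists at 42 days against chow, 13 were read with the covariate, and all 13 were lost. Those of Elovl6, Mlxipl and Scd1 at 42 days were not read with it. Of 12 such calls read with it at 5 days 6 were lost, those of Agpat2, Thrsp, Cidea, Vwf, Cldn5 and Adgre1. The 5-day calls of G0s2, Acaca and Scd1 were not read with it. The 42-day and chow arrays met on this measure only at 1.08.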

How the data were processed

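Skeletal muscle RNA of 12 samples, 4 per group, was measured on Affymetrix arrays. The authors deposited log2 RMA signals, one value for each probe set; RMA is named in the submitters' processing notes without a version, and the log2 scale was read from the range of the values. RMA as a method corrects background and normalizes between arrays, which is meant to lessen shifts common to a whole array. In the deposited values the array medians still averaged 7.61 at 5 days, against 7.67 at 42 days and 7.67 on chow. The genome build behind the array is not given in the sources used here. Of 45098 probe sets, 34945 had 1 gene symbol in the platform table, 932 several, 9160 none, and 61 were controls; 34741 matched RefSeq by Entrez identifier, and 0 symbols changed. The probe set of highest mean stood for each of 18193 genes, and dim genes were kept.

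The fit of group means used limma 3.58.1 (R 4.3.3) and all 12 arrays (constant prior; 9 residual and 5.88 prior degrees of freedom), two-sided, with Benjamini-Hochberg adjustment over all genes per contrast and a threshold of 0.05. Covariation with Adipoq used the same fit with the Adipoq level added. Errors after ± are SE for fold changes and slopes and SD for group values, and folds are log2 fold changes turned to a linear scale. The scripts were tested on simulated data. Precision is limited by 4 arrays per group.

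The members and lists were chosen with earlier results of these data known. Named beside the 8 genes were up to 4 genes per list and contrast past the test by smallest p (or 2 of a list with none), Fasn, Ucp1, Acta1, and the 8 genes most alike; a few others were named after their values were seen. Alternatives were quantile normalization, median centring, leaving out dim genes, other choices of probe set, array weights, another prior, fits of 8 arrays, a replicate block, an RNA quality covariate, another threshold, and leaving out each array. Protein sequences were not used here.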

Additional observations from a re-analysis of the deposited data

Results flagged for a closer look

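Adipoq in chow replicate 4, at a log2 signal of 12.91, lay far above the other chow arrays, which ran from 11.59 to 11.82. Pparg in 5-day replicate 4, at 7.79, lay below the other 5-day arrays, which ran from 8.001 to 8.01. Aqp7 in the same array, at 7.89, lay above the other 5-day arrays, which ran from 7.64 to 7.68. These were 3 of 27 sets of 4 arrays (8 genes and their mean in 3 groups), and chance alone marks about 1 in 20 such sets.

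Of the genes named, 5 differed between 42 and 5 days and also from chow at one of the times (limma, adjusted over all genes). The log2 fold change of 42 over 5 days was -0.33 for Smad3 (adjusted p = 0.0182), -0.32 for Plin3 (adjusted p = 0.0277), 0.34 for Aqp9 (adjusted p = 0.0238), -0.35 for Mlxipl, the carbohydrate response factor (adjusted p = 0.0172), and -0.33 for Vwf (adjusted p = 0.0236), all by limma. None of the 8 white adipocyte genes was among them. The 42-day mice were also older than the 5-day mice, so time on the diet and age cannot be told apart here. With the 3′ minus 5′ difference of control transcripts as a covariate, Aqp9 kept its call (adjusted p = 0.0388) and the other 4 lost it (adjusted p between 0.0515 and 0.0658, limma). The 5 calls were lost without 1, 5, 4, 2 and 4 of the 12 arrays in turn, and without 42-day replicate 1, 0 genes of 18193 passed between 42 and 5 days.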

How the results depend on the processing

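The fold changes of the 8 white adipocyte genes gave 522 values under the alternatives, of which 485 kept direction and side of the threshold, 23 lost and 5 gained a call, and 9 changed sign. The reversed signs were of small values. Lep at 5 days ran from -0.14 to 0.0034 without each array (0.0034 without chow replicate 4, 0.0032 without 5-day replicate 4), and at 42 days from -0.0058, without 42-day replicate 2, to 0.23. Aqp7 at 42 days was 0.13 with the RNA covariate. For 42 over 5 days, Adipoq ran from -0.040 to 0.48 and Aqp7 from -0.040 to 0.13 (lowest without 42-day replicate 2), Pparg from -0.22 to 0.079 (highest without 42-day replicate 1), and with the most variable probe set Fabp4 was -0.062 and Acvr1c -0.069. The slope of Acvr1c on Adipoq was 0.23 with the mean of its probe sets, 0.46 with the most variable one and 0.012 with the replicate block. With the mean of the probe sets Smad3 was 0.38 at 42 days and 0.14 for 42 over 5 days, and with the most variable one 0.85 and 0.45; Ppard was 0.18 there for 42 over 5 days. The cause was not tested. The other list genes gave 743 values, of which 530 kept direction and side of the threshold and 205 lost a call.

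At 5 days 2 adipocyte genes passed, against 1 after quantile normalization, 0 with array weights, with the trended prior, with the 8 arrays compared and with the RNA covariate, 5 at an adjusted p under 0.1, and 0 to 2 without each array. All genes called at 5 days were 692, against 208 after quantile normalization, 1353 after median centring, 1256 with every probe set, 159 with array weights, 7 with the 8 arrays, 207 with the covariate, 2073 at an adjusted p under 0.1, and 6 to 790 without each array, the lowest without 5-day replicate 2. At 42 days 0 adipocyte genes passed, against 2 (Retn and Fabp4) with the most variable or with every probe set, 1 at an adjusted p under 0.1 and 0 to 1 without each array. All genes there were 1011, against 2536 with the most variable and 3690 with every probe set, 13 with the covariate, 1872 at an adjusted p under 0.1, and 228 to 1079 without each array. Between 42 and 5 days the adipocyte count was 0 under all alternatives run, and 1550 genes in all stood against 371 after quantile normalization, 3465 after centring (258 higher and 3207 lower, against 501 and 1049), 529 with the mean of probe sets, 2727 with every probe set, 541 with the covariate, 3682 at an adjusted p under 0.1, and 0 to 1972 without each array. Genes that followed Adipoq were 26, against 7 with the replicate block, 15 with the covariate, 42 at an adjusted p under 0.1, and 11 to 30 without each array; adipocyte genes among them were 2, against 4 after centring, without the dimmest genes, with the trended prior and at an adjusted p under 0.1, 1 with the block and with the covariate, and 1 to 3 without each array. Whether replicate numbers pair the arrays was not settled. Of 12 same-numbered pairs 3 correlated over 0.1, all 3 between the replicate 1 arrays (0.21 to 0.22). Pairs of unlike numbers are not given, so these values have no reference beside them. With the replicate number as a block, 3 adipocyte genes passed at 5 days (Acvr1c with an adjusted p = 0.0494, limma). In that fit 880, 1051 and 1778 genes passed at 5 days, at 42 days and between them.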
